A study of Drosophila melanogaster and Drosophila simulans with 21 samples.

Results

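RnrL, Prim2, PolE1 and CG12109, the gene of the p180 subunit of chromatin assembly factor 1 (RefSeq synonym CAF1-p180), are 4 genes of DNA synthesis and of chromatin assembly behind the replication fork. They were selected by name and are represented by 1 probe position each on a spotted cDNA array, of 1384 named genes tested and 4753 genes and unnamed positions tested in all. Poly-A RNA from adult females of 3 kinds was compared: virgin Drosophila melanogaster of the Canton S strain, virgin D. simulans of the Sim-1 strain, and the hybrid females that Canton S females produced with Sim-1 males. Flies were raised at 25 C, and the crosses took place at 18 C. The hybrids came from these crosses, so hybrid origin and cross temperature cannot be told apart in the comparisons with the parents. All females were kept at room temperature for 5 to 6 days and then frozen. The labels name no transgene or treatment, and the extractions from separate cohorts of a strain were pooled into a single RNA sample. Each array carried 2 labelled cDNAs. Every one of the 3 RNA pairs was hybridised on 6 arrays, with each RNA in channel 1 on 3 of them, and 3 further arrays carried one RNA labelled in both channels.

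Copying a genome needs deoxyribonucleotides, which ribonucleotide reductase makes from ribonucleotides, short RNA primers, which primase lays down within the DNA polymerase alpha complex, and polymerases that extend them. DNA polymerase epsilon extends the leading strand, and chromatin assembly factor 1 places new histones H3 and H4 on the copied DNA. In adult flies much of this activity lies in dividing and endoreplicating cells of the ovary and in the stem cells of the gut. Early embryos replicate their DNA with products that the mother stored in the egg.

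RnrL (CG5371, chromosome arm 2L) encodes the large, catalytic subunit of ribonucleotide reductase. Prim2 (CG5553, arm 3L) encodes the large subunit of primase. PolE1 (CG6768, arm 3R) encodes the catalytic subunit of DNA polymerase epsilon, and CG12109 (chromosome X) the largest subunit of chromatin assembly factor 1. Arms are those of the Release 6 plus ISO1 MT gene table. All 4 positions held a value on each of the 18 arrays with 2 different RNAs.

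The deposited values are linear ratios of the 2 channels, and the labels do not name the numerator. They are read here as channel 1 over channel 2. That reading was adopted with the data already known, so the direction is not settled: in the other reading every "lower" below becomes "higher", while sizes, counts and p-values stay. Under the adopted reading, 69 of the 95 features with the largest parental differences (72.6%) gave less signal with D. simulans RNA, which is mismatched to probes made from D. melanogaster. Summing the 3 pairs around the loop left gaps with an SD of 0.19 on the log2 scale, against 0.87 with the parental pair turned, which fixes only the relative directions. All values below are log2 ratios after subtracting each array's median, so they are relative to the median position.

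Arrays held values for 4657 to 4946 positions, with deposited medians of 0.852 to 1.11. Signal over background is unknown, and the number of arrays limits the precision. On the 3 arrays that carried a single RNA, the log2 ratios of all features had an SD of 0.207 to 0.214. On those arrays Prim2 lay between 0.06 and 0.12, CG12109 between -0.05 and 0.07 and PolE1 between -0.09 and 0.05, all close to 0. RnrL lay at 0.20, 0.32 and 0.22, on one side of 0 each time, and its fitted channel term over the 18 swapped arrays was -0.11, of the opposite sign. Because each strain is 1 RNA pool, arrays are technical repeats, p-values measure only the spread between arrays, and a difference between strains and one between their pools cannot be told apart.

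One set of arrays stood apart for these genes and is named before the results. Of the 6 arrays of hybrid with D. simulans RNA, the pair whose titles carry the number 4 gave much smaller differences for RnrL, Prim2 and PolE1 than the other 4 arrays. What the title number stands for is not given in the labels, and these 2 arrays were singled out after their values were seen. Fits of the hybrid against each parent and against the parental mean, differences between members and means by title number are given with and without them.

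**Figure D1:**
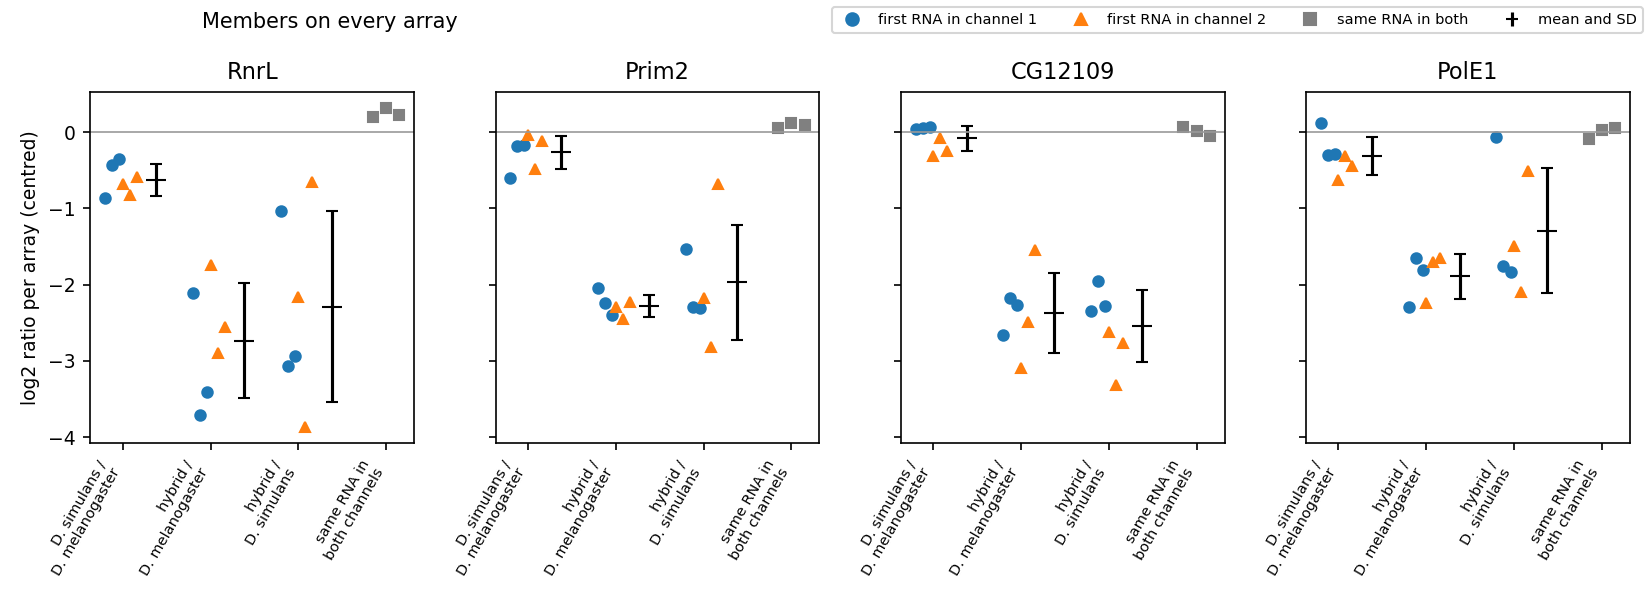
Log2 ratio per array for each of the 4 genes (vertical axis, centred on the array median, adopted reading) by RNA pair, with 6 arrays a pair. Circles and triangles give the channel of the first-named RNA, black marks the mean and SD, and grey squares the 3 arrays that carried a single RNA. Hybrid ratios lie below 0 on every array for all 4 genes. On 2 arrays of hybrid with D. simulans RNA they come nearer to 0 for RnrL (-0.66 and -1.03), Prim2 (-0.68 and -1.54) and PolE1 (-0.51 and -0.06).

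Against their maternal species D. melanogaster, hybrid females had less RNA of all 4 genes in the adopted reading. Fitted differences ran from 3.46-fold for PolE1 to 6.94-fold for RnrL. In a whole-body sample, fewer cells of a type and less RNA per cell cannot be told apart.

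RnrL ratios of hybrid over D. melanogaster were -3.72 at the lowest, -2.73 at the median and -1.74 at the highest of 6 arrays. The spread was wide. The ratios of D. simulans over D. melanogaster for this gene ran from -0.87 to -0.36. The fit gave -2.80 ± 0.25 (SE; limma, adjusted p = 2.72e-09).

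Prim2 was the most even of the 4 on these arrays. Its ratios were -2.45 at the lowest, -2.27 at the median and -2.05 at the highest, with a mean of -2.28 ± 0.143 (SD, n = 6). The fit gave -2.26 ± 0.14 (SE; limma, adjusted p = 9.27e-12), which is 4.80-fold.

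CG12109 ratios were -3.10 at the lowest, -2.37 at the median and -1.55 at the highest. The parental ratios of the gene ran from -0.31 to 0.07. The fit gave -2.46 ± 0.12 (SE; limma, adjusted p = 2.49e-13), or 5.49-fold.

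PolE1 had the smallest difference, with ratios of -2.29 at the lowest, -1.75 at the median and -1.65 at the highest. The parental ratios of the gene ran from -0.62 to 0.12. The fit gave -1.79 ± 0.16 (SE; limma, adjusted p = 2.38e-09).

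So all 4 members were lower than D. melanogaster. In the same contrast 83.8% of all features passed the threshold (adjusted p under 0.05) and 41.8% passed as lower, so the call alone sets the members little apart. By size, 1.18% of the 4753 features stood as low as or lower than RnrL, 1.79% as CG12109, 2.06% as Prim2 and 4.25% as PolE1. Arrays scaled to a common spread gave smaller differences, at -1.80 for RnrL, -1.45 for CG12109, -1.39 for Prim2 and -1.14 for PolE1.

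Against their paternal species D. simulans, hybrid females were again lower for all 4 genes, by 2.61-fold for PolE1 up to 5.51-fold for CG12109. This contrast shares the hybrid RNA with the one before. The order of the genes differed, with CG12109 now at the lowest value and RnrL next.

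CG12109, the histone-depositing subunit, had ratios of -3.31 at the lowest, -2.48 at the median and -1.95 at the highest. The fit gave -2.46 ± 0.12 (SE; limma, adjusted p = 2.83e-13), the same size as against D. melanogaster. Both arrays with title number 4 lay inside the range of the others for this gene, at -2.77 and -2.34. Without them the fit gave -2.44 ± 0.14 (SE; limma, adjusted p = 5.42e-11).

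RnrL ratios were -3.87 at the lowest, -2.55 at the median and -0.66 at the highest, and their SD was 1.25 (n = 6), the widest of the 4 genes. The 2 arrays with title number 4 were the nearest to 0, at -0.66 and -1.03, and the other 4 lay between -3.87 and -2.16. The value of -0.66 was in the numerical range of the D. simulans over D. melanogaster ratios of RnrL. Those have another denominator, so this does not show that hybrid and D. simulans levels overlapped. All 6 ratios lay below 0. The fit gave -2.23 ± 0.25 (SE; limma, adjusted p = 8.37e-08), and without those 2 arrays -2.63 ± 0.23 (adjusted p = 8.16e-09).

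Prim2 ratios were -2.82 at the lowest, -2.23 at the median and -0.68 at the highest. The title number 4 arrays were again nearest to 0, at -0.68 and -1.54, while the other 4 lay at -2.17 or below. The fit gave -1.98 ± 0.14 (SE; limma, adjusted p = 7.43e-11), and without them -2.23 ± 0.093 (adjusted p = 8.52e-13).

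PolE1 ratios were -2.10 at the lowest, -1.62 at the median and -0.06 at the highest. Its values on the title number 4 arrays, -0.51 and -0.06, were nearest to 0 but below it, whereas the other 4 arrays lay between -2.10 and -1.49. Both were in the numerical range of its D. simulans over D. melanogaster ratios, which have another denominator. The fit gave -1.39 ± 0.16 (SE; limma, adjusted p = 1.14e-07), and without those arrays -1.70 ± 0.099 (adjusted p = 4.83e-11).

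All 4 members thus passed as lower than D. simulans, in a contrast where 82.2% of features passed and 40.8% passed as lower. The 4 also passed as lower without the title number 4 arrays, where 3897 of 4753 features passed in either direction. The share of features at or below each member was 1.51% for CG12109, 2.1% for RnrL, 2.76% for Prim2 and 6.82% for PolE1. On arrays scaled to a common spread the differences were -1.42 for CG12109, -1.10 for RnrL, -1.08 for Prim2 and -0.69 for PolE1.

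**Figure D2:**
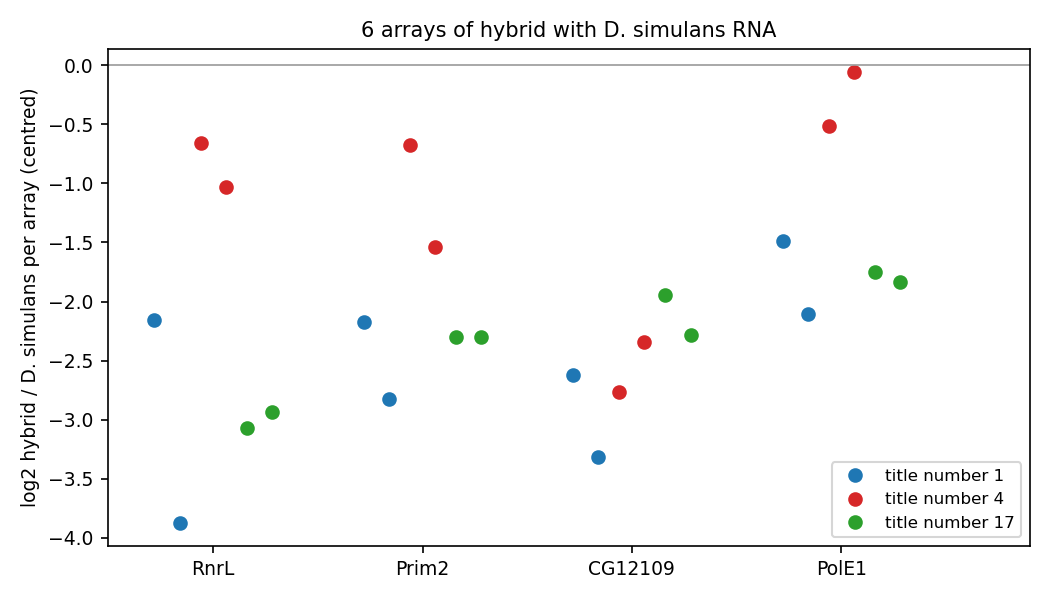
Log2 ratio of hybrid over D. simulans (vertical axis, centred) on each of the 6 arrays for the 4 genes, coloured by the number in the array's title. The 2 arrays with title number 4 lie at -1.54 or above for RnrL, Prim2 and PolE1 and among the others for CG12109.

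The gap between the 2 title number 4 arrays and the other 4 was 2.16 for RnrL, 1.51 for PolE1 and 1.29 for Prim2, against -0.01 for CG12109. Among 4237 features with all 6 values, RnrL had the largest such gap upward, PolE1 ranked 9 and Prim2 ranked 19. A gap over 1 was seen in 51 of the 4237. Over all features, the title number 4 arrays correlated with the other 4 at 0.82 to 0.89, and the other 4 among themselves at 0.92 or more. The 2 arrays correlated with each other at 0.82. The mean of the 6 measured germline markers on these arrays was -0.55 and -0.60, inside the -0.78 to -0.29 of the other 4. The source of the gap was not tested.

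Between the parental species the 4 genes differed less than in either hybrid comparison. D. simulans was lower than D. melanogaster for PolE1, which passed the threshold narrowly, while RnrL, Prim2 and CG12109 did not pass. The background share in this contrast was 46.8% passing and 23.5% passing as lower. The share of features at or below each member was 7.24% for RnrL, 12.6% for PolE1, 19.2% for Prim2 and 47.8% for CG12109.

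PolE1 ratios of D. simulans over D. melanogaster were -0.62 at the lowest, -0.31 at the median and 0.12 at the highest, so 5 of 6 arrays lay below 0. The fit gave -0.40 ± 0.16 (SE, 1.32-fold; limma, adjusted p = 0.0443). This call was lost when single arrays were left out in 12 of 18 cases, with adjusted p of up to 0.0847, and with deposited medians (adjusted p = 0.0751). Without the title number 4 arrays the value was -0.25 (adjusted p = 0.0312), and with title numbers 14 to 18 alone it was -0.19.

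RnrL ratios were below 0 on 6 of 6 arrays, at -0.87 for the lowest, -0.63 for the median and -0.36 for the highest. The fit over 18 arrays gave -0.57 ± 0.25 (SE; limma, adjusted p = 0.0724), with a 95% interval of -1.09 to -0.04 before adjustment. The 6 arrays of this RNA pair alone gave -0.62 (adjusted p = 0.00159), so the call depended on which arrays entered the fit.

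Prim2 was also below 0 on 6 of 6 arrays, from -0.60 to -0.04 with a median of -0.17. The fit gave -0.28 ± 0.14 (SE; limma, adjusted p = 0.112). CG12109 was below 0 on 3 of 6 arrays, from -0.31 to 0.07, and the fit gave 0.0061 ± 0.12 (SE; limma, adjusted p = 0.973), with a 95% interval of -0.25 to 0.26. Mismatch of D. simulans cDNA to the probes and a lower RNA level cannot be told apart in these values.

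For each of the 4 genes the order of levels was therefore the same at its lower end. The hybrid stood below both parents, and both steps passed the threshold, as they did for 36.2% of all features. The upper neighbours, D. melanogaster and D. simulans, differed past the threshold for PolE1 alone, with the reservations given above.

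**Figure D3:**
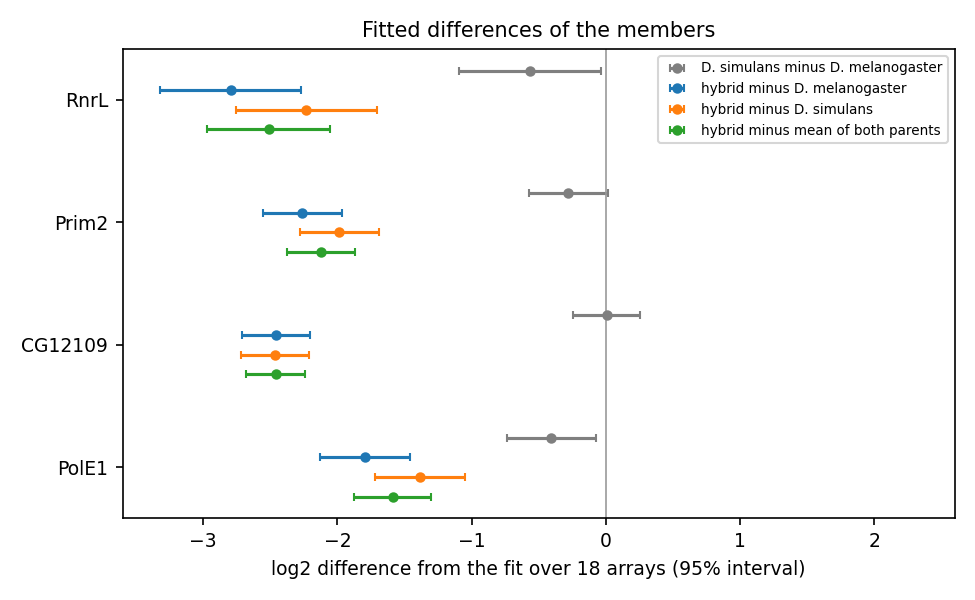
Fitted log2 differences (horizontal axis) with 95% intervals for each gene, from the model over 18 arrays, in the adopted reading. The 3 hybrid comparisons lie between -2.80 and -1.39, and the parental comparison between -0.57 and 0.01.

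Relative to the parental mean, taken on the log2 scale, hybrid females stood at -2.51 ± 0.22 for RnrL, -2.46 ± 0.10 for CG12109, -2.12 ± 0.12 for Prim2 and -1.59 ± 0.14 for PolE1 (SE; limma, adjusted p from 2.08e-14 for CG12109 to 1.41e-09 for PolE1). Without the title number 4 arrays these values were -2.81 for RnrL, -2.44 for CG12109, -2.31 for Prim2 and -1.83 for PolE1. In this contrast 85.3% of features passed and 42.3% passed as lower. The median of the 4 was -2.29, against 0.02 over all features tested. Of all features, 1.49% stood as low as or lower than RnrL, 1.58% as CG12109, 2.27% as Prim2 and 5.07% as PolE1.

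How far the hybrid lay below its parents was compared between the members over the 12 arrays with hybrid RNA. PolE1 had the mean nearest to 0. Its mean ratio was -1.59, against -2.51 for RnrL, -2.46 for CG12109 and -2.12 for Prim2.

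CG12109 was lower than PolE1 on 11 of 12 arrays, by 0.87 ± 0.753 (SD; exact two-sided sign-flip permutation test, p = 0.000977, adjusted p = 0.0117 over 12 comparisons). Prim2 was lower than PolE1 on 11 of 12 arrays, by 0.53 ± 0.424 (exact permutation test, p = 0.00244, adjusted p = 0.0146). RnrL was lower than PolE1 on 10 of 12 arrays, by 0.92 ± 0.777 (exact permutation test, p = 0.00391, adjusted p = 0.0156). These 3 calls rest on treating each array as a separate unit. The 12 arrays carry 7 title numbers, and when arrays of one title number changed sign together, the exact permutation test gave p = 0.0156, 0.0312 and 0.0312 in the same order. No p below 0.0156 is possible there, and after adjustment none of the 3 passed (adjusted p = 0.125 each). On the 6 arrays with D. melanogaster the differences were -0.49, -0.39 and -0.85 (exact permutation test, unadjusted p = 0.0625, 0.0938 and 0.125), and on the 6 with D. simulans -1.26, -0.68 and -0.999 (p = 0.0312 each, the smallest that 6 arrays allow). Without the title number 4 arrays, the differences from PolE1 were -0.59 for CG12109, -0.48 for Prim2 and -0.996 for RnrL (10 arrays, exact permutation test, adjusted p = 0.0352, 0.0352 and 0.0391).

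No difference passed between RnrL and Prim2 (-0.39 ± 0.627, exact permutation test, adjusted p = 0.0938), Prim2 and CG12109 (0.34 ± 0.722, adjusted p = 0.164), or RnrL and CG12109 (-0.05 ± 1.18, adjusted p = 0.879). The SDs show how widely RnrL and CG12109 moved against each other from array to array, so these values do not show equal responses. Without the title number 4 arrays, RnrL minus CG12109 was -0.41, RnrL minus Prim2 -0.52 and Prim2 minus CG12109 0.11, and none passed (exact permutation test, adjusted p = 0.257, 0.0535 and 0.488). In the parental comparison, RnrL was lower than each of the other 3 on 6 of 6 arrays, by 0.36 to 0.55. Those 3 exact tests reached 0.0312, the smallest p that 6 arrays allow, and 0.0624 after adjustment.

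Array means also differed between title numbers 1 to 8 and 14 to 18, a split that was not tested for single genes. Against D. melanogaster, with 3 arrays in each range, RnrL averaged -2.25 and -3.22, whereas CG12109 averaged -2.75 and -1.997. Prim2 averaged -2.27 and -2.29 there, and PolE1 -2.08 and -1.70. Thus RnrL was lower on the later numbers and CG12109 on the earlier ones, while Prim2 was even. Against D. simulans, with 4 and 2 arrays, RnrL averaged -1.93 and -3.004, Prim2 -1.80 and -2.30, PolE1 -1.04 and -1.79, and CG12109 -2.76 and -2.11. The 4 arrays of the lower range include both with title number 4. Without them the lower range averaged -3.02 for RnrL and -1.79 for PolE1, level with the higher range, and -2.50 for Prim2 and -2.97 for CG12109. In either range alone, all 4 genes passed as lower in both hybrid contrasts. With title numbers 1 to 8, 3583 and 3556 of 4753 features passed against D. melanogaster and D. simulans. Of those, 50% and 49.7% were lower. With title numbers 14 to 18, 4238 and 4122 of 4752 passed, of which 49% and 48.2% were lower.

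Some array means also differed by the channel an RNA was labelled in, which is partly confounded with title number. Against D. simulans, CG12109 averaged -2.19 with hybrid RNA in channel 1 and -2.90 with it in channel 2, where channel 1 holds 2 arrays of title number 17 and channel 2 holds 2 of title number 1. RnrL averaged -3.08 and -2.40 against D. melanogaster, but -2.35 and -2.23 against D. simulans. Prim2 averaged -2.23 and -2.32 against D. melanogaster. Between the parents, CG12109 lay above 0 on the 3 arrays with D. simulans RNA in channel 1 (mean 0.055) and below 0 on the 3 with it in channel 2 (mean -0.21). The fit holds a channel term for each gene.

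The wider replication and chromatin machinery was sparsely covered. Of 152 listed genes of origin firing, replicative polymerases and clamp loading, nucleotide supply, chromatin assembly, cell cycle control and checkpoints, 9 were measured under a name. Against the parental mean, 8 of the 9 were lower, 0 were higher and 1 did not pass, where 42.3% of all features were lower. Their median was -1.15 against 0.02 over all features. Against D. melanogaster 7 passed as lower and 2 did not pass (41.8% of all features lower), and against D. simulans 8 and 1 (40.8%).

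RecQ4, a helicase needed to start replication, was nearest to the members in size. It stood at -2.03 ± 0.084 relative to the parental mean (SE; limma, adjusted p = 1.43e-14), and at -1.94 and -2.12 against D. melanogaster and D. simulans. No other origin gene of 28 listed was measured under a name.

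Among 3 measured genes of polymerases and clamp handling, elg1 and PolD2 were lower and PolD3 did not pass. The gene elg1 encodes a clamp-loader-like protein that in yeast and human unloads the sliding clamp, and stood at -1.52 ± 0.17. PolD2, a subunit of DNA polymerase delta, stood at -1.26 ± 0.14 (SE; limma, adjusted p = 7.78e-08 and 5.13e-08 for elg1 and PolD2). PolD3, another subunit of the same polymerase, stood at -0.17 ± 0.11 (adjusted p = 0.16). The 2 measured polymerase delta subunits thus had values of different size, a difference that was not tested.

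On the chromatin side, Jabba, which holds histones on lipid droplets in the egg and embryo, was lower at -1.15 ± 0.052. The gene cal1, whose product loads the centromeric histone H3 variant, was lower at -0.61 ± 0.085 (SE; limma, adjusted p = 1.22e-13 and 1.35e-06). Between the parents Jabba was higher in D. simulans, at 0.39, and cal1 did not pass, at 0.16.

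Of the cell cycle regulators, 3 of 28 listed were measured. The gene ago, an F-box protein that marks cyclin E for degradation, stood at -1.22 ± 0.068, and Rbf, the retinoblastoma homologue that restrains E2F, at -0.62 ± 0.069. Cul3, a scaffold of ubiquitin ligases, stood at -0.25 ± 0.087 (SE; limma, adjusted p = 1.19e-12, 6.01e-08 and 0.0116). Rbf and ago, which hold back entry into S phase, were thus lower in the same contrast as the enzymes of replication. No listed gene of nucleotide supply or of the replication checkpoint was measured under a name.

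**Figure D4:**
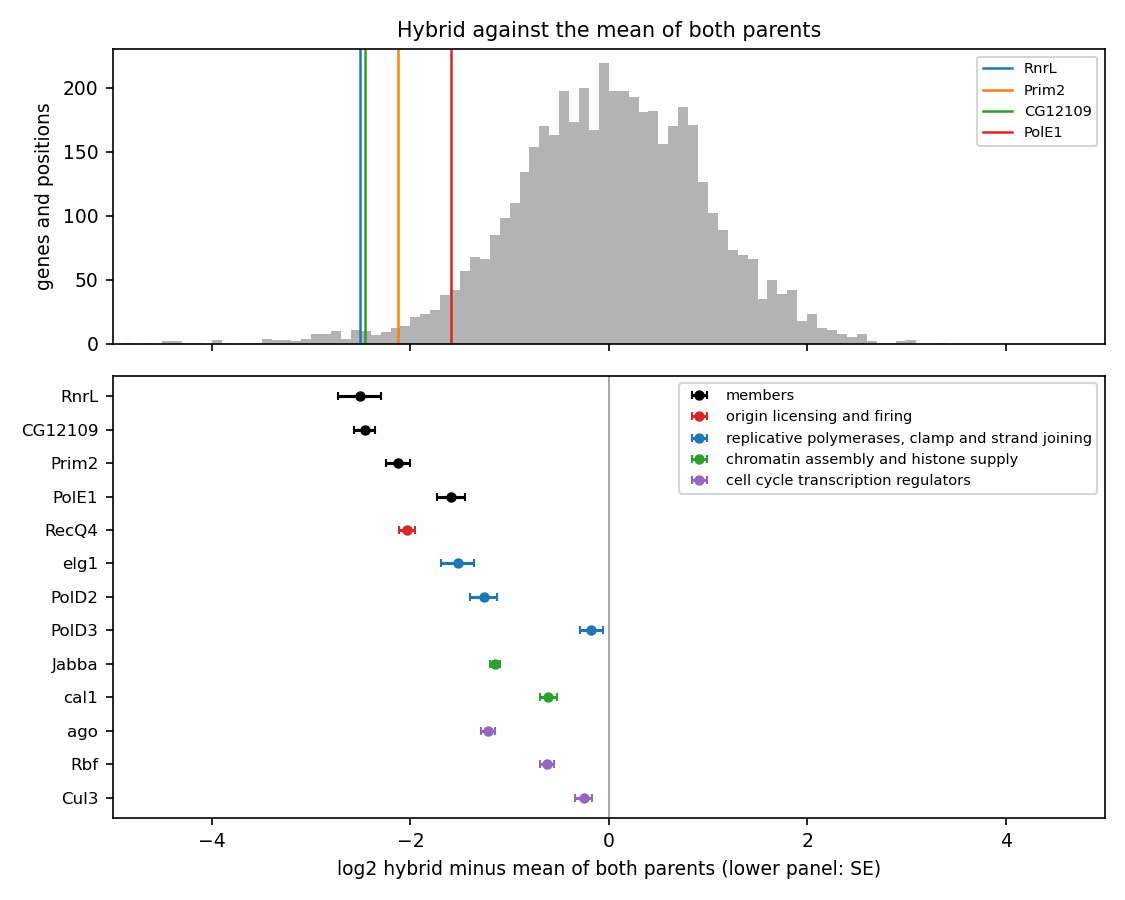
Upper panel, number of the 4753 features (vertical axis) by log2 hybrid minus the mean of both parents, with the 4 genes as lines. Lower panel, the same difference with its SE for the 4 genes and the 9 other measured genes of replication, chromatin and cell cycle lists. All points lie left of 0, with PolD3 nearest to it at -0.17.

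Markers of tissues moved in the same contrasts, and their part in the members' values was not tested. Of 6 measured germline markers of 40 listed, 4 were lower than the parental mean, 0 were higher and 2 did not pass, with a median of -0.75, in the contrast where 42.3% of all features were lower. Against D. melanogaster 5 were lower, 0 were higher and 1 did not pass, with a median of -1.28. There 41.8% of all features were lower. Against D. simulans 3 were lower, 2 did not pass and 1, Fs(2)Ket, was higher at 0.25 (limma, adjusted p = 0.0438), with a median of -0.29. In that contrast 40.8% of all features were lower and 1971 of 4753 were higher. Relative to the parental mean, the germline marker c(2)M, a synaptonemal complex gene, stood at -1.35. In the same contrast zuc, a piRNA nuclease, stood at -1.74 and ovo at -0.02. Averaged over the 6 markers, single arrays lay at -1.39 to -0.67 for hybrid over D. melanogaster. The corresponding arrays with D. simulans RNA lay at -0.78 to -0.29. The only measured marker of ovarian follicle cells, br, which other tissues express too, stood at -0.49 relative to the parental mean. Of 9 measured fat body markers of 22 listed, 9 were higher, with a median of 0.93, and of 4 muscle markers of 21 listed, 4 were higher, with a median of 1.07. Of 2 testis markers of 22 listed, 1 was higher. These fat body, muscle and testis counts are against the parental mean, where 2043 of all 4753 features passed as higher. Relative to the parental mean, the members' values of -2.51 to -1.59 exceeded in size every germline marker measured except zuc, which lay beyond PolE1. The markers themselves ran from -1.74 for zuc to -0.02 for ovo, so this comparison does not measure germline content.

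The named genes most like each member were sought by the root mean square difference of log2 ratios over the 18 arrays, among 1379 named genes with at least 15 shared arrays. For RnrL the nearest was Prim2, at 0.63 against a median of 2.25 over all candidates. The meiotic checkpoint gene pch2 followed at 0.66, and wus, a gene of airway maturation, at 0.75 over 17 arrays. CG12109 and PolE1 ranked 26 and 31.

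For Prim2 the nearest were CG1622 at 0.35, CG7744 at 0.38 and wus at 0.40, with the members PolE1, RnrL and CG12109 at ranks 27, 31 and 38. For CG12109 they were the ubiquitin adaptor gene rdx at 0.33 and the kinase gene S6KL and the kinetochore gene Zwilch at 0.38 each. For PolE1 they were PolH, which encodes the translesion DNA polymerase eta, at 0.38, and Nup154, a nuclear pore gene, and heph, an RNA-binding protein gene, at 0.40 each. The other members ranked 22 (Prim2), 67 (PolE1) and 74 (RnrL) for CG12109, and 42 (Prim2), 251 (CG12109) and 304 (RnrL) for PolE1. Of the 4 members, Prim2 was thus the closest match of RnrL, and no other member came among the 3 nearest of another. These distances describe shared arrays of 3 RNA pools. The arrays include the 2 with title number 4, where CG12109 lay at -2.77 and -2.34 and PolE1 at -0.51 and -0.06. Ranks without those arrays were not computed.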

How the data were processed

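The deposited table holds 1 linear ratio of the 2 channels per probe position and array. How the authors scanned, corrected, normalized and filtered these ratios is not given in the sources used here. Platform annotation gave 1 gene symbol for 1943 of 6101 positions, and 1145 positions held no value. Ratios were put on the log2 scale, each array was centred on its median (8 arrays lay over 0.1 from 0), and positions of a gene were averaged. Genes needed 4 of 6 values per RNA pair, which left 4753 tested across all genes with 1.43% of values missing.

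All 18 arrays entered 1 model in limma 3.58.1 (R 4.3.3) with terms for D. simulans RNA, hybrid RNA and channel. P-values are two-sided and were adjusted over all features of a comparison (Benjamini-Hochberg), with a threshold of 0.05. The code was tested on simulated data. Members were compared by exact sign-flip tests over arrays, and over title numbers. Replicates are numbered in order of deposition. The members, gene lists and tests were chosen with earlier results of these data known. Genes named are the 4 members, measured list genes and the 3 nearest patterns per member. Some genes with a large title number 4 gap are also named, picked after their values were seen. Alternatives covered centring, scaling, missing values, channel term, title numbers, positions, moderation, arrays used, a 1.5-fold minimum and each array left out.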

Additional observations from a re-analysis of the deposited data

How the results depend on the processing

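In the hybrid comparisons, all 384 values of the 4 genes under other settings (14 settings, and 18 with an array left out) stayed past the threshold with the same sign. Most features pass in these comparisons (82.2% to 85.3% in the main fit). How many of them stayed so under every setting was not counted. Sizes fell most on arrays scaled to a common spread, to between -1.80 and -0.69. With deposited medians the median feature of the comparison with D. simulans lay at -0.10 instead of 0.02, and 56.6% instead of 49.6% of passing features were lower. For D. melanogaster these shares were 54.8% and 49.9%.

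A minimum of 1.5-fold left 530 features between the parents, 2643 and 2464 in the hybrid against D. melanogaster and D. simulans, and 2559 against the parental mean. The main counts were 2223, 3983, 3908 and 4052.

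Between the parents, PolE1 lost its call with deposited medians (-0.38), with title numbers 1 to 8 (-0.54) and, at -0.40, with the 1.5-fold minimum. Leaving out single arrays gave -0.47 to -0.32, with the call lost in 12 of 18 cases. RnrL passed with a common spread (-0.70), title numbers 14 to 18 (-0.44) and its own 6 arrays (-0.62), and ranged from -0.68 to -0.47 with an array left out, passing in 2 cases. Prim2 passed with a common spread (-0.31) and title numbers 14 to 18 (-0.19), and ranged from -0.34 to -0.19, passing in 1 case. Without title number 4, RnrL stood at -0.37 and Prim2 at -0.15, and neither passed. CG12109, near 0, turned sign at -0.029 (common spread), -0.076 (title numbers 1 to 8), -0.077 (own 6 arrays) and -0.0072 (without title number 4, chosen after seeing the data), and ranged from -0.065 to 0.038.

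Among members, RnrL minus PolE1 (-0.92), Prim2 minus PolE1 (-0.53) and CG12109 minus PolE1 (-0.87) lost their calls when signs were flipped by title number, an alternative chosen after seeing the data whose smallest p is 0.0156. They also lost them on the 6 D. melanogaster arrays alone (-0.85, -0.39 and -0.49), but not on the 6 D. simulans arrays. Both sets were judged by unadjusted p, unlike the main calls. On the D. simulans arrays, which include both with title number 4, each p was the smallest that 6 arrays allow. RnrL minus CG12109 was -0.41 without title number 4, turned to 0.26 on the D. simulans arrays and ranged from -0.25 to 0.082 with an array left out. Prim2 minus PolE1 between the parents ranged from -0.063 to 0.20. The cause of other changes was not tested. No paired analysis was possible because replicate numbers follow deposition order and pair no arrays. Title number as a random block changed no call of a member.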

Other observations

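Other named genes shared the gap between the 2 title number 4 arrays and the other 4 arrays of hybrid with D. simulans RNA, and were picked after their values were seen. The centriole gene ana2 averaged -0.997 on the 2 arrays and -2.48 on the other 4, the transcription elongation gene EloA -0.04 and -1.41, and elg1 -0.78 and -1.89. The mRNA cap gene Rnmt stood on opposite sides of 0, at 0.38 and -1.04. Incenp averaged -2.37 and -3.51. Features with a mean under -1 on the other 4 arrays numbered 672, and 40 of them (5.95%) lay nearer to 0 by over 1 on the title number 4 arrays, while the median feature of the 672 lay nearer by 0.31.

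None of the 12 sets of 6 arrays, 1 for each member and RNA pair, had a single array apart from the rest by Dixon's criterion, which does not detect 2 arrays that stand apart together.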
